A study of Mus musculus with 4 samples.

Results

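The peroxisome proliferator-activated receptors (PPARs), the retinoid X receptors (RXRs), the PGC-1 coactivators and the estrogen-related receptors (ERRs) set how strongly heart muscle transcribes its genes for burning fat and for mitochondria. The transcripts of 10 such regulators, Ppara, Ppard, Pparg, Rxra, Rxrb, Rxrg, Ppargc1a, Ppargc1b, Esrra and Esrrg, were followed here on Affymetrix arrays of mouse heart. They were found as the probe sets that the platform annotation gives to only 1 of these symbols, which made 22 probe sets out of 45101 on the array. The brightest probe set, by its mean over the arrays, stood for its gene, so that 10 of 18193 measured genes were regulators. One further probe set, shared by Ppard and a neighbouring annotation, was left out because it carries more than 1 symbol.

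The study compared hearts of mice with a Ser9Ala replacement in the kinase GSK-3beta, labelled as 3.5 months old (knock-in, n = 2 arrays), with hearts of wild-type mice labelled as 3.6 months old (n = 2 arrays). All were of the strain labelled C57B6 and were taken at baseline, without a treatment. The replacement removes the serine whose phosphorylation inhibits the kinase. The labels give neither the zygosity nor the sex of the animals, nor the feeding state or the hour at collection, and they do not say whether each array came from a separate animal. The p-values therefore measure only the spread between these arrays, which may be technical. Values are log2 expression made with RMA, in which a step of 1 is a doubling, and differences are knock-in minus wild-type. RMA assigns a number to every probe set, also to those of transcripts that are not there, and levels of different probe sets are not comparable with each other.

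PPARs are nuclear receptors that bind fatty acids and pair with an RXR on DNA. The pair reads 2 copies of the core motif AGGTCA in the same orientation with 1 base between them. ERRs are orphan receptors that bind a longer form of that motif and have no known natural hormone. PGC-1alpha and PGC-1beta, encoded by Ppargc1a and Ppargc1b, bind no DNA themselves and are recruited by PPARs and ERRs to switch on their targets. A transcript array measures none of the steps that act on these proteins, such as phosphorylation or ligand binding.

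No regulator passed the test between knock-in and wild-type hearts (limma, Benjamini-Hochberg over all 18193 genes). The smallest adjusted p was 0.605, that of Ppargc1b. Of all genes tested, a single gene passed, which is 0.00550% of them. The differences of the 10 regulators ran from -0.29 for Ppargc1b to 0.20 for Rxrg on the log2 scale, with 5 higher, 5 lower and a median of -0.015. Over all genes the median was 0.00024. At an unadjusted p under 0.05 there was 1 regulator of 10, against 7.39% of all genes, so the share among regulators is not a result about them. The genotypes did not overlap for 4 regulators, against 36.5% of all genes. Of these, 1 was higher, against 19.6% of all genes, and 3 were lower, against 17.0%. The regulators varied between arrays about as much within a genotype as between genotypes, by the median absolute difference of 2 arrays. This was 0.123 between arrays of different genotype (40 pairs of values) and 0.123 between arrays of 1 genotype (20 pairs). Over all genes these medians were 0.127 and 0.120.

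**Figure D1:**
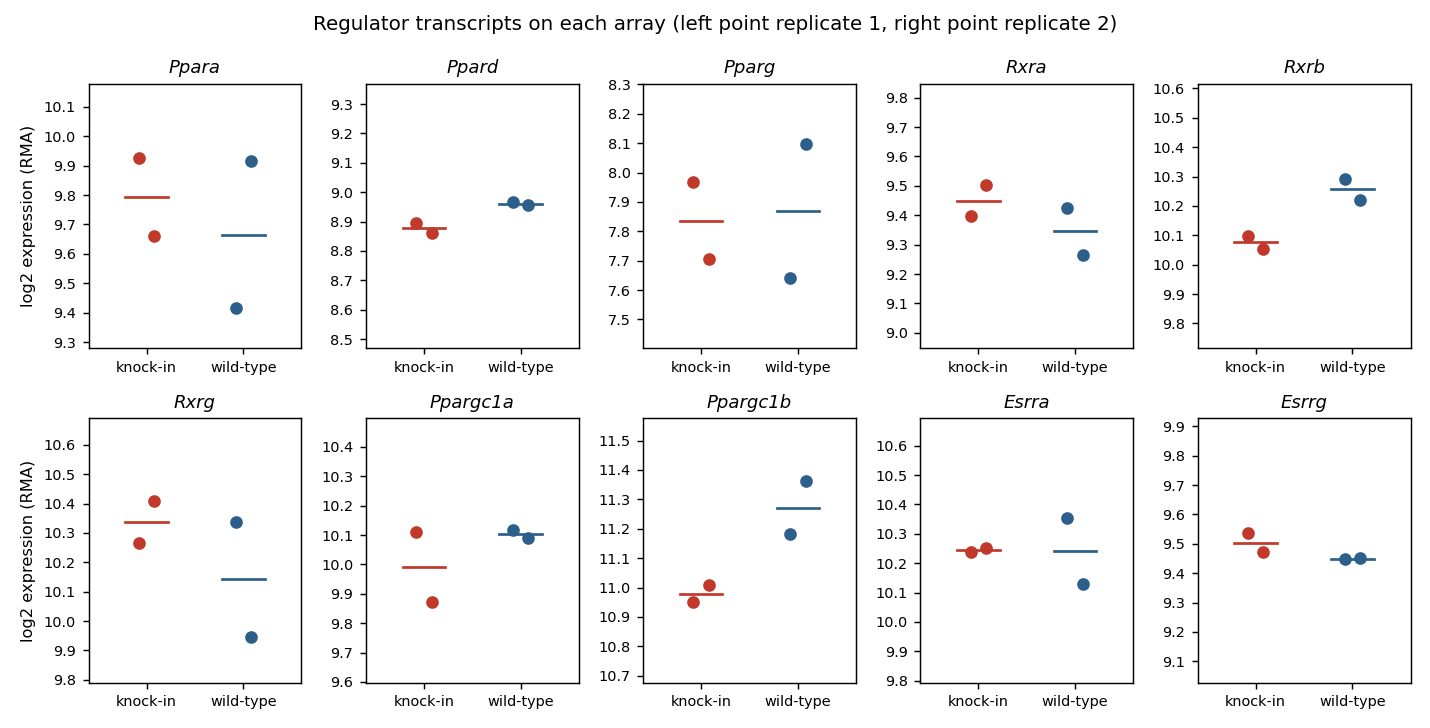
Log2 expression (RMA, y axis) of the brightest probe set of each regulator in knock-in hearts (red, 2 arrays) and wild-type hearts (blue, 2 arrays). Horizontal lines are group means, and every panel spans the same height on the log2 scale. The groups lie apart for Ppard, Rxrb, Ppargc1b and Esrrg and overlap for the other 6 genes.

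The intervals describe these arrays and 1 probe set per regulator. Since the spread between arrays may be technical, they do not bound the effect of the genotype. Of the 10 unadjusted 95% intervals, 9 held 0, and the outermost ends were -0.55 for Ppargc1b and 0.58 for Ppara. Differences beyond 1.47-fold lower or 1.49-fold higher thus fell outside the interval of every regulator in the fit over genes. In the fit over all probe sets, the same ends for the same probe sets were -0.57 and 0.59. An interval reached from 0.23 (Ppard) to 0.45 (Ppara) to either side of its difference.

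**Figure D2:**
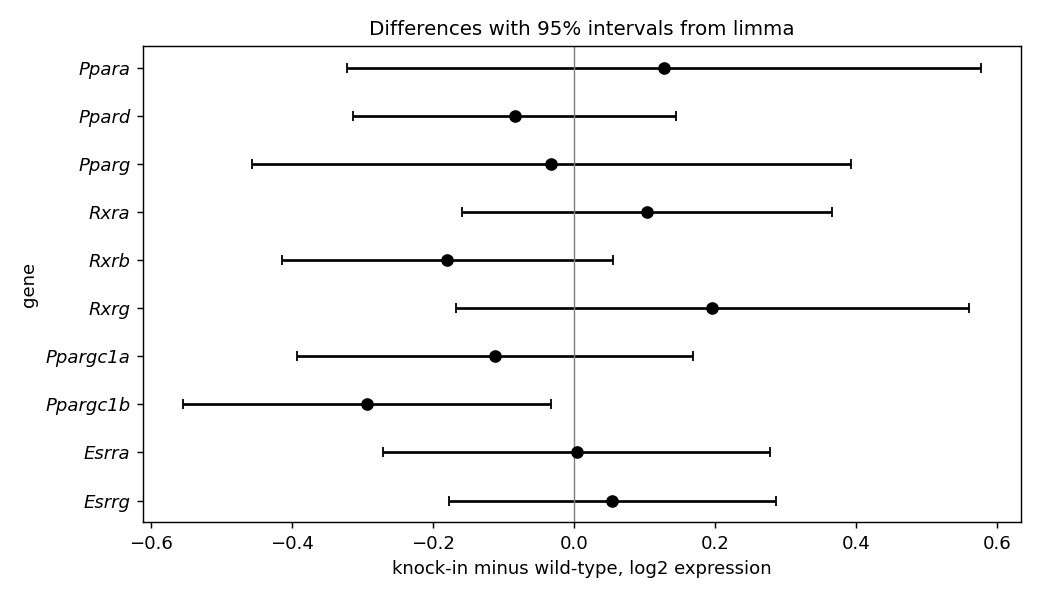
Knock-in minus wild-type difference (log2, x axis) of each regulator with its 95% interval from limma, not adjusted for the number of genes. The Ppargc1b interval, from -0.55 to -0.03, is the 1 that does not hold 0.

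Among the PPARs, no subtype passed the test between the genotypes, and the sign depended on the probe set or on single arrays. Ppara encodes PPARalpha, the subtype that drives fatty acid oxidation genes in heart and liver. Its brightest probe set, 1449051_at, read 9.93 and 9.66 in knock-in hearts, against 9.42 and 9.92 in wild-type hearts. Wild-type 1 alone was low and the groups overlapped. The difference was 0.13 (SE 0.19, 95% interval -0.32 to 0.58, limma adjusted p = 0.943), and single arrays turned it, to -0.12 when wild-type 1 and to -0.0060 when knock-in 1 was left out, while leaving out wild-type 2 gave 0.38. Probe set 1457721_at gave 9.75 and 9.76 in knock-in hearts, against 9.60 and 9.66 in wild-type hearts. On 1439675_at the values were 9.26 and 9.08 in knock-in hearts, against 9.11 and 9.20 in wild-type hearts. The second of these probe sets separated the groups, by 0.12, and the last did not, with a difference of 0.015.

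Ppard encodes PPARdelta, the widely expressed subtype that also acts on oxidation genes in muscle. Probe set 1439797_at read 8.90 and 8.86 in knock-in hearts, against 8.97 and 8.96 in wild-type hearts, a difference of -0.08 (SE 0.09, adjusted p = 0.909). The dimmer 1425703_at read 6.22 and 6.19 in knock-in hearts, against 6.15 and 6.12 in wild-type hearts. Each probe set separated the groups, but in opposite directions, with the second higher by 0.07 in knock-in hearts. Pparg encodes PPARgamma, the subtype that directs the making of fat cells. Its single probe set, 1420715_a_at, read 7.97 and 7.70 in knock-in hearts, against 7.64 and 8.10 in wild-type hearts. The wild-type values enclosed the knock-in values, and the difference was -0.033 (SE 0.18, 95% interval -0.46 to 0.39, adjusted p = 0.995). It turned to 0.19 without wild-type 2.

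Markers of other cells in which PPARs are abundant moved in part. Of 22 measured hepatocyte markers of 25 listed, all 22 were higher in knock-in hearts, 19 of them at an unadjusted p under 0.05, against 4.40% of all genes. Their mean log2 level was 6.68 and 7.20 in knock-in hearts, against 5.86 and 5.54 in wild-type hearts. Their summed linear signal was 3045 and 4725 in knock-in hearts, against 1595 and 1210 in wild-type hearts. Serum albumin (Alb), the defining one, read 8.58 and 9.66 in knock-in hearts, against 7.01 and 5.54 in wild-type hearts. Of 8 measured adipocyte markers of 10 listed, 4 were higher and 4 lower. An unadjusted limma p under 0.05 was reached by 2 (25%), both higher, against 4.40% of all genes. Their summed signal was 15363 and 14419 in knock-in hearts, against 15137 and 15324 in wild-type hearts. These were adiponectin (Adipoq), which PPARgamma induces in fat cells, higher by 1.13, and carbonic anhydrase 3 (Car3), higher by 2.23. The lipid carrier Fabp4 differed by -0.016. The summed signal of the 8 adipocyte markers was 15363 and 14419 in knock-in hearts, against 15137 and 15324 in wild-type hearts. Fabp4 (13.31 to 13.42) and Plin4 (11.72 to 12.13) made up most of the summed adipocyte signal. Adipoq (5.11 to 6.54) and Car3 (5.65 to 8.26) hardly count in it. The part of these cells in the PPAR values was not tested. In bulk tissue, a change in the number of cells of a type and a change in RNA per cell cannot be told apart. The 10 cardiomyocyte markers read 10.50 to 14.76 over the 4 arrays and were 0.0011 to 0.16 higher in knock-in hearts, with none at an unadjusted p under 0.05.

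The RXRs are the shared partners of the PPARs, and their 3 genes did not move as 1 group. Rxra, the major subtype of heart and liver, read 9.40 and 9.50 on probe set 1454773_at in knock-in hearts, against 9.43 and 9.27 in wild-type hearts. The difference was 0.10 (SE 0.11, adjusted p = 0.898), and wild-type 1 lay between the knock-in arrays. On 1425762_a_at the values were 6.91 and 7.19 in knock-in hearts, against 7.00 and 6.90 in wild-type hearts. The dim 1430497_at gave 4.47 and 4.33 in knock-in hearts, against 4.43 and 4.39 in wild-type hearts. None of the 3 Rxra probe sets separated the groups.

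Rxrb, the broadly expressed subtype, was the regulator with the next smallest p after Ppargc1b. Probe set 1416990_at read 10.10 and 10.05 in knock-in hearts, against 10.29 and 10.22 in wild-type hearts. Both knock-in arrays were below both wild-type arrays, with a difference of -0.18 (SE 0.10, 95% interval -0.41 to 0.06, unadjusted p = 0.112, limma adjusted p = 0.754). Rxrg, the subtype of skeletal and heart muscle, went the other way. It read 10.27 and 10.41 on 1418782_at in knock-in hearts, against 10.34 and 9.95 in wild-type hearts. Its difference of 0.20 (SE 0.15, adjusted p = 0.831) rested on wild-type 2, without which it was 0.0011, while without wild-type 1 it was 0.39.

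Core motifs of the kind these receptors bind were looked for in the 250 bases before each start of transcription (sequences from RefSeq, build GRCm38.p6). A window was at hand for 9 of the 10 regulators, 17 windows in all, and for 7 of 8 PPAR targets described below. None was at hand for Ppargc1b or Angptl4. The core motif AGGTCA on either strand was present in 4 of 17 regulator windows (23.5%), those of Rxra, Rxrg and, in 2 windows, Pparg, against 14.0% of all 32851 windows. The longer form AAGGTCA, which contains it, was in 2 windows (11.8%), those of Rxra and Rxrg, against 4.08% of all windows. The direct repeat with 1 base between and the ERR element TCAAGGTCA, both also searched on either strand and both containing the core motif, were in none of the 17 windows, against 0.0335% and 0.387% of all windows. Of the 8 windows of PPAR targets, 3 (37.5%) held the core motif, those of Ucp3, Plin2 and Plin5. The longer form, the direct repeat and the ERR element were in 0 of these 8 windows. The windows of Rxra and Rxrg are shown as the regulators with the longer form, and that of Ucp3 as the PPAR target of smallest p, with core motifs on either strand in capitals. They were chosen after the values were seen.
Rxra promoter (chr2:27709042-27709291, + strand): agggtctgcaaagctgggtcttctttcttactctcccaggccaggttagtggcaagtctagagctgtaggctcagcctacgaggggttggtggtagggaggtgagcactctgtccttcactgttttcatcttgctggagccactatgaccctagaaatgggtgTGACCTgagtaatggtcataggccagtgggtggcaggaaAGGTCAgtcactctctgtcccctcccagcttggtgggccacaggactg
Rxrg promoter (chr1:167618015-167618264, + strand): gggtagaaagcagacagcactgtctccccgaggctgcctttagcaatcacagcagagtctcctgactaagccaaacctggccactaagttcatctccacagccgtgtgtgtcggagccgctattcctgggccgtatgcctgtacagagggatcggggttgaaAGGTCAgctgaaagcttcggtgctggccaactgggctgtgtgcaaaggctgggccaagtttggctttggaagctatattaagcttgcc
Ucp3 promoter (chr7:100472741-100472990, + strand): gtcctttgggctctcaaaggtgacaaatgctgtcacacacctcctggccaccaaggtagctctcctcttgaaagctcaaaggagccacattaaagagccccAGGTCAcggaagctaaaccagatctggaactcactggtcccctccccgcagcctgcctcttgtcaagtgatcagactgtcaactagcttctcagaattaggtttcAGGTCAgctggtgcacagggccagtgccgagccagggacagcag
In the Rxra window 1 core motif, on the opposite strand, lies 87 bases before the start and another 48 bases before it. The Rxrg window has a single copy, 88 bases before the start. Ucp3 has 2 copies, at 149 and 44 bases, too far apart to form the repeat. A match of letters is a description and does not show a bound site.

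The PGC-1 coactivators differed in what they showed. Ppargc1a encodes PGC-1alpha, the coactivator induced by fasting, cold and exercise, and has 5 probe sets. On the brightest, 1456395_at, it read 10.11 and 9.87 in knock-in hearts, against 10.12 and 10.09 in wild-type hearts. Knock-in 1 was level with wild-type 1 and knock-in 2 was the low array, so the groups overlapped at a difference of -0.11 (SE 0.12, adjusted p = 0.897), which was 0.0078 without knock-in 2. Probe set 1437751_at read 9.54 and 9.24 in knock-in hearts, against 9.28 and 9.32 in wild-type hearts. On 1434100_x_at the values were 9.23 and 8.98 in knock-in hearts, against 9.42 and 9.16 in wild-type hearts. Knock-in 1 was above knock-in 2 on both.

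The remaining Ppargc1a probe sets were 1460336_at, with 8.92 and 9.14 in knock-in hearts, against 8.99 and 9.17 in wild-type hearts, and 1434099_at. The last of these read 8.85 and 8.78 in knock-in hearts, against 8.75 and 8.69 in wild-type hearts. Of the 5 probe sets 2 were higher and 3 lower, from -0.18 to 0.09, and only 1434099_at separated the groups.

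Ppargc1b encodes PGC-1beta, the relative of PGC-1alpha that supports mitochondrial and lipid genes at rest. It was the regulator with the largest difference. Its single probe set, 1449945_at, read 10.95 and 11.01 in knock-in hearts, against 11.18 and 11.36 in wild-type hearts. Both knock-in arrays were below both wild-type arrays, and the gap between the group means, -0.29, exceeded the 0.18 between the wild-type arrays. This is 1.23-fold lower (SE 0.11 on the log2 scale, 95% interval -0.55 to -0.03). The unadjusted p was 0.0330, which 989 other genes undercut, and the limma adjusted p was 0.605. The direction was the same in all 11 alternative fits, but only centring and quantile normalization could have changed it. The gene has 1 probe set, and with the groups apart no array left out can turn the sign. Differences ran from -0.38 to -0.20 when 1 array was left out. The unadjusted p was above 0.05 when knock-in 1 (0.138), knock-in 2 (0.0823) or wild-type 2 (0.127) was left out, and with each array centred on its median (0.0645).

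Neither ERR transcript passed the test. Esrra encodes ERRalpha, the main partner of PGC-1alpha on genes of oxidative phosphorylation. On 1460652_at it read 10.24 and 10.25 in knock-in hearts, against 10.35 and 10.13 in wild-type hearts. The knock-in values lay between the wild-type values, with a difference of 0.0034 (SE 0.11, 95% interval -0.27 to 0.28). The dimmer 1442864_at gave 7.62 and 7.38 in knock-in hearts, against 7.14 and 7.49 in wild-type hearts, and overlapped too.

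Esrrg encodes ERRgamma, which is enriched in heart and needed there for the oxidative programme after birth in mice. Probe set 1455267_at read 9.54 and 9.47 in knock-in hearts, against 9.45 and 9.45 in wild-type hearts. Both knock-in arrays were above, by 0.05 on average (SE 0.10, adjusted p = 0.956). On 1457896_at the values were 6.39 and 6.16 in knock-in hearts, against 6.34 and 6.43 in wild-type hearts. The dim 1421747_at gave 5.26 and 5.59 in knock-in hearts, against 5.57 and 5.25 in wild-type hearts. Neither of these separated the groups, and the differences were -0.11 and 0.014.

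Over all 22 probe sets, 13 were higher and 9 lower in knock-in hearts. When every probe set other than controls was fitted on its own, none passed with limma, nor did any of the 22 regulator probe sets (smallest adjusted p = 0.837). At an unadjusted p under 0.05 there was 1 of the 22, that of Ppargc1b, against 5.84% of all 45037 probe sets. The groups lay apart for 7 of the 22, against 33.9% of all. Probe sets of 1 gene disagreed in sign for Ppard, Rxra, Ppargc1a and Esrrg and agreed for Ppara and Esrra, while the other 4 genes have 1 probe set each.

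**Figure D3:**
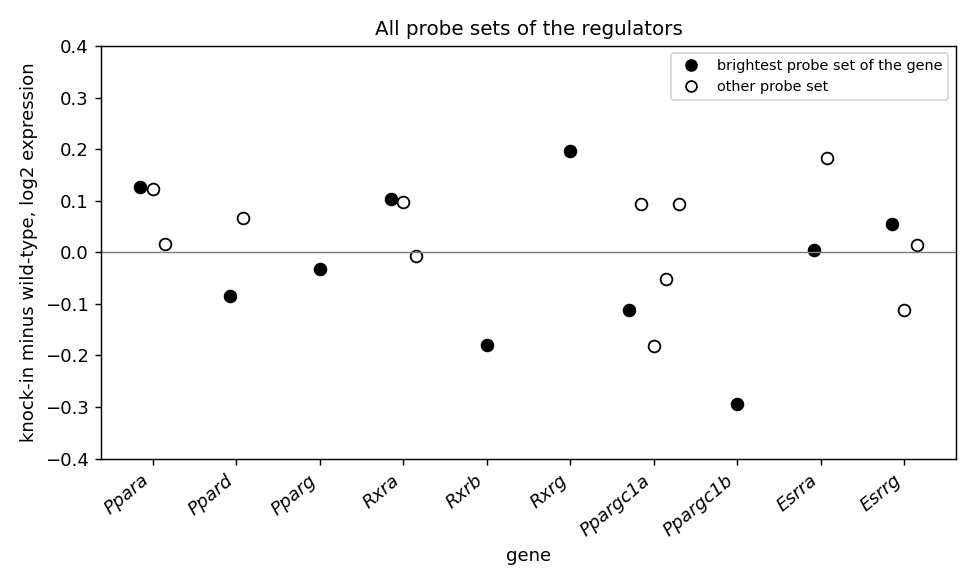
Knock-in minus wild-type difference (log2, y axis) of all 22 probe sets by gene, with the brightest probe set of each gene filled. All points lie between -0.29 and 0.20, and those of Ppard, Rxra, Ppargc1a and Esrrg fall on both sides of 0.

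The genes around the regulators were set beside them in 7 lists of receptors, cofactors, upstream enzymes and targets. No member of any list passed over all genes, where the smallest adjusted p was 0.0724, that of Ucp3. Of the other receptors that pair with RXR, 2 of 12 measured were higher and 10 lower, with none at an unadjusted limma p under 0.05 (median -0.033), though 1 higher gene had one without knock-in 1 and 2 lower genes without wild-type 2. Over all genes, 9111 of 18193 were higher. The count of higher receptors was 5 after quantile normalization, 6 with each array centred, and 3 to 7 when 1 array was left out. The smallest p belonged to Nr4a1, an immediate early receptor, which read 9.63 and 10.81 in knock-in hearts, against 9.72 and 9.69 in wild-type hearts, so that knock-in 2 alone was high. Next came the thyroid hormone receptor Thra (-0.19), the xenobiotic receptor Nr1i3 (0.16) and the retinoic acid receptor Rara (-0.13). The 8 other orphan receptors were split evenly, with none at an unadjusted p under 0.05. Nr2f6 (0.14), Nr2c1 (-0.12), the third ERR gene Esrrb (0.07) and Nr2f2 (0.11) had the smallest p there.

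Coactivators and corepressors numbered 20 measured, of which 14 were higher and 6 lower (median 0.04). An unadjusted p under 0.05 was reached by 2 of them (10%, against 7.39% of all genes), both higher, a count that was 1 without knock-in 1 and 0 without knock-in 2. Hdac3, the deacetylase of the nuclear receptor corepressor complex, read 9.35 and 9.44 in knock-in hearts, against 9.04 and 9.05 in wild-type hearts (0.35, adjusted p = 0.463). Perm1, a muscle factor induced by PGC-1 and ERR, read 11.85 and 11.80 in knock-in hearts, against 11.63 and 11.52 in wild-type hearts (0.25, adjusted p = 0.667). Both were separated by group, but a second Perm1 probe set, dim at 4.78 to 5.02, was lower by 0.18 in knock-in hearts. The acetyltransferase Kat2a, which inhibits PGC-1alpha, differed by -0.22 and the corepressor exchange factor Tbl1xr1 by -0.18.

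Enzymes and factors upstream of PGC-1 had no member past the adjusted threshold. Of 23 measured, 6 (26.1%) had an unadjusted p under 0.05, 5 higher against 4.40% of all genes and 1 lower against 2.99%. The list's median difference was 0.07. Prkag2, the gamma2 subunit of AMP-activated protein kinase (AMPK), which senses low energy and activates PGC-1alpha, read 8.21 and 8.35 in knock-in hearts, against 7.75 and 7.71 in wild-type hearts. The difference was 0.55 (SE 0.10, limma adjusted p = 0.289), and 3 of its 4 probe sets were higher. Prkab2, the beta2 subunit of AMPK, read 9.84 and 9.94 in knock-in hearts, against 9.54 and 9.61 in wild-type hearts, and all 3 of its probe sets were higher (0.02 to 0.46).

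Camk2d, the main calcium/calmodulin kinase of heart muscle, read 9.20 and 9.07 in knock-in hearts, against 8.07 and 8.62 in wild-type hearts. That is a difference of 0.79 (adjusted p = 0.366), but its 7 probe sets went both ways, from -0.41 to 0.79. Camkk2, a kinase that activates AMPK, was the lower one, at 6.59 and 6.59 in knock-in hearts, against 6.92 and 6.96 in wild-type hearts (-0.35, adjusted p = 0.438), with 3 of 4 probe sets lower. The mitochondrial deacetylase Sirt3 (0.31) and the ubiquitin ligase Rnf34 (0.29) complete the 6 and were picked out after their values were seen. The catalytic AMPK subunits Prkaa1 and Prkaa2 differed by 0.32 and -0.05, and the groups overlapped for both. The Prkaa1 probe set was dim, at 3.89 to 4.84, with only 12.0% of genes dimmer. The count of 5 higher genes was 3 when knock-in 1, knock-in 2 or wild-type 1 was left out and 7 without wild-type 2, and that of 1 lower gene was 2 without wild-type 1 or wild-type 2.

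**Figure D4:**
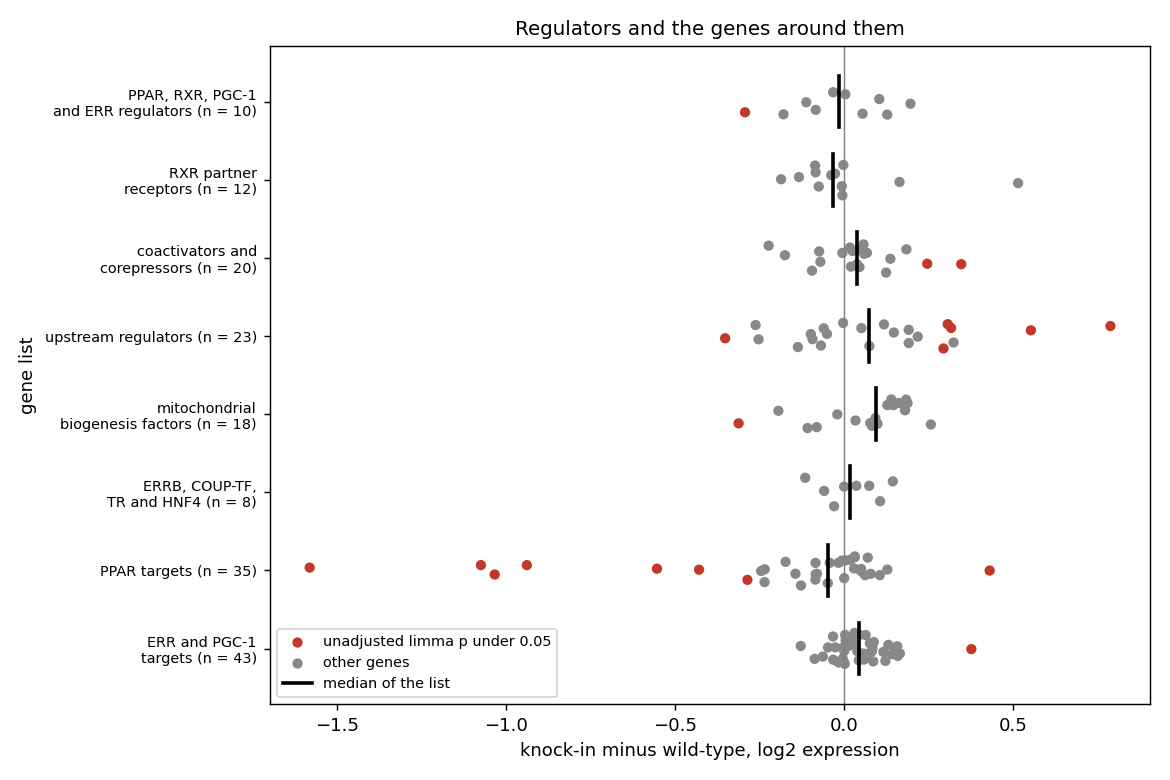
Knock-in minus wild-type differences (log2, x axis) of the regulators and of the 7 lists around them, 1 point per gene, with list medians as black bars and genes at an unadjusted limma p under 0.05 in red. The PPAR targets reach to -1.58, whereas the regulators stay between -0.29 and 0.20.

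Mitochondrial biogenesis factors, through which PGC-1 acts on the organelle's own genome, were higher for 13 of 18 (median 0.10). The median was -0.015 without wild-type 1. The transcription factor Yy1 read 9.38 and 9.33 in knock-in hearts, against 9.68 and 9.66 in wild-type hearts. Of its 4 probe sets 3 were lower and 1 was higher, by 0.12. It alone had an unadjusted limma p under 0.05 (-0.31, adjusted p = 0.518), which is 5.56% of the list, against 7.39% of all genes. The count of lower genes was 0 without knock-in 1 or knock-in 2 and 2 without wild-type 1, and 3 higher genes had such a p without wild-type 2. The mitochondrial DNA packaging factor Tfam differed by 0.26, the fusion protein Opa1 by 0.19 and the mitochondrial polymerase Polg by 0.18.

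Targets of ERR and PGC-1, mostly subunits of the respiratory chain and enzymes of the citric acid cycle, were higher for 31 of 43 and lower for 12, by small amounts (median 0.05). Knock-in hearts lay wholly above wild-type hearts for 20 of the 43 and below for 2. Bright genes as a class were shifted the same way, and 42 of the 43 fell in the brightest 10% of genes. In that class the median difference was 0.04, 63.0% of genes were higher and the groups lay apart upward for 35.5%. The cardiomyocyte markers, all in that class, had a median of 0.04. After quantile normalization the targets' median was 0.0093 and 24 of 43 were higher. The antioxidant enzyme Gpx1 was the 1 target of 43 (2.33%) at an unadjusted p under 0.05 (0.38, adjusted p = 0.546), against 7.39% of all genes. That count was 0 without knock-in 2 or wild-type 1, 2 without wild-type 2 or with averaged probe sets, and 5 with an intensity trend and robust prior. Next in p were Sdhd (0.16), Sod2 (0.16) and Ckmt2 (0.16).

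Targets of PPARs spanned the widest range of differences among the 7 lists (-1.58 to 0.43), whereas no PPAR gene differed by more than 0.13 in either direction. Of 35 measured, 8 (22.9%) had an unadjusted p under 0.05, 7 lower against 2.99% of all genes and 1 higher. Ucp3, a mitochondrial carrier, read 8.79 and 8.71 in knock-in hearts, against 9.81 and 9.75 in wild-type hearts (-1.03, SE 0.10). Pdk4, which blocks the use of pyruvate, read 11.58 and 11.09 in knock-in hearts, against 12.66 and 13.17 in wild-type hearts (-1.58, adjusted p = 0.220). For both, the gap between genotypes was wider than that between arrays of 1 genotype. Angptl4, an inhibitor of lipoprotein lipase, differed by -1.07 and the thioesterase Acot1 by -0.94.

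The other targets at an unadjusted p under 0.05, named after their values were seen, were the droplet coats Plin2 (-0.43) and Plin5 (-0.29), the peroxisomal enzyme Ehhadh (-0.55) and, upward, the thioredoxin inhibitor Txnip (0.43). Targets that carry out the steps of mitochondrial beta-oxidation were closer to 0, with 0.07 for Acadm, 0.03 for Acadl, -0.0068 for Acadvl, -0.08 for Hadha and 0.0052 for Hadhb. The list's median was therefore only -0.05, with 13 higher, 21 lower and Lpl at 0. The groups lay apart for 20 of the 35 (57.1%), against 36.5% of all genes. Of these, 14 were lower, against 17.0% of all genes, and 6 higher, against 19.6%. The 14 include Cpt1a (-0.25), Mlycd (-0.24), Acot2 (-0.24) and Cpt2 (-0.13), picked out after their values were seen and without an unadjusted limma p under 0.05. The lower values of several of these targets were known when the list was drawn up. In the fits lacking knock-in 2 or wild-type 2, 5 targets were lower at an unadjusted p under 0.05. No target was higher at that p without knock-in 1 or wild-type 1, or with the replicate block.

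Across the series, array medians lay between 5.97 and 6.04 and Pearson's r between arrays from 0.994 to 0.997 over 18193 genes, which are not independent replicates. The brightest probe set of the targeted gene Gsk3b read 9.82 and 9.87 in knock-in hearts, against 9.62 and 9.72 in wild-type hearts. Its 6 probe sets went both ways, 2 higher and 4 lower, from -0.42 to 0.18. Gsk3a read 10.76 and 10.83 in knock-in hearts, against 10.71 and 10.80 in wild-type hearts. The replacement itself is not visible to such an array. The 1 gene that passed was the cell cycle inhibitor Cdkn1a (-1.67, limma adjusted p = 0.0434).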

How the data were processed

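Transcripts in 2 knock-in and 2 wild-type heart samples were measured on Affymetrix arrays. The deposited values are log2 expression values that the authors made with RMA in Affymetrix Expression Console, per the submitters' processing notes. Its version and the genome build are not given in the sources used here. The titles name the wild-type arrays as controls for beta, and they were compared here only with the knock-in arrays. The table held 45101 probe sets, 64 of them controls. The platform annotation gave 1 symbol for 34945, of which 34741 were found in RefSeq (GRCm38.p6), whose symbol was then used. The brightest probe set stood for each of 18193 genes, with no filter on dim ones.

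Differences were fitted on all genes, or on all 45037 probe sets other than controls, in R 4.3.3 with limma 3.58.1 (lmFit, eBayes), two-sided, with Benjamini-Hochberg adjustment at 0.05. Errors are SEs of that fit, and intervals cover 95% unadjusted. The number of arrays limits precision. With 2 arrays a group, the smallest p of an exact permutation test is 0.333. Tested on simulated data with 200 of 18193 genes changed, over 10 runs, the fit recovered 86.6% of 2-fold and 99.3% of 4-fold changes with 9.4 false calls per run. That recovery holds for the simulated data alone. On these arrays Pdk4, 2.99-fold lower, and Alb, 7.18-fold higher, did not pass, and Cdkn1a, 3.19-fold lower, was the only gene that did.

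The regulators and lists were chosen with earlier results of these data known. Per list, the up to 4 genes of smallest p are named, beside others said to be picked later. Some genes of the lists are not reported here. Genes of like pattern were not sought, since 4 arrays are fewer than 6. Alternatives were the replicate block, a robust prior with intensity trend, centring, quantile normalization, bright genes alone, other choices of probe set, all probe sets and each array left out. Markers of brown adipocytes (0 of 7 at an unadjusted limma p under 0.05) and endothelium (0 of 10) were also counted. So were those of fibroblasts (1 of 10), macrophages (0 of 10) and erythrocytes (1 of 5). Over all genes the share was 7.39%. The erythrocyte marker counted was the transferrin receptor Tfrc (1.39), while Alas2 (0.24), Slc4a1 (0.05), Epb42 (0.02) and Hba-a1 (-0.03) had no such p.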

Additional observations from a re-analysis of the deposited data

How the results depend on the processing

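No regulator passed under any of the 11 alternatives run for it. Several of these could not change a direction. The replicate block, the robust prior and bright genes alone leave the differences as they are. Other choices of probe set do so for genes with 1 probe set, among them Rxrb, Rxrg and Ppargc1b. Where groups lay apart, as for Rxrb and Ppargc1b, leaving out an array cannot turn the sign. Rxra, Rxrb, Rxrg and Ppargc1b kept their direction in all 11. The others changed sign in 1 to 3 alternatives: with each array centred Pparg was 0.0056, after quantile normalization Esrra was -0.030, with averaged probe sets Esrrg was -0.014, and with the probe set listed first Ppard was 0.066 and Ppargc1a 0.093. Leaving out 1 array gave ranges of -0.12 to 0.38 for Ppara, -0.26 to 0.19 for Pparg, -0.23 to 0.0078 for Ppargc1a and -0.11 to 0.12 for Esrra, in fits that take the lone array to vary as the pair does. Regulators with the groups apart numbered 5 to 8 when 1 array was left out, where fewer arrays make separation easier, and regulators at an unadjusted p under 0.05 numbered 0 to 2, with 0 also when arrays were centred. Over the 7 lists 18 genes had an unadjusted p under 0.05, and 10 to 25 without 1 array. Genes passing in the whole table were 1 in the fit reported, 22 with an intensity trend and robust prior, 11 with centring, 11 with quantile normalization, 11 with averaged probe sets, 7 among bright genes alone and 0 with the first probe set, over all probe sets and without any 1 array. With the replicate block 0 genes passed and Ppargc1b had an unadjusted p of 0.0407. The titles share replicate numbers only: deviations of same-numbered arrays correlated at -0.031 over genes. For the counts that changed, the cause was not tested unless the alternative itself leaves out arrays or genes.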
